A study of Mus musculus with 8 samples.

Results

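Gene deserts are long stretches of sequence without protein-coding genes, and 4740 of the open regions of these embryonic stem cells lay in them. A peak was placed in a desert when its centre was over 100 kb from the outer bounds of every RefSeq protein-coding gene of GRCm38 on chromosomes 1 to 19. The 4740 peaks were 6.28% (exact 95% binomial interval 6.11 to 6.46%) of the 75462 autosomal peaks, and the whole list held 76996 peaks. The assay was ATAC-seq, which uses the Tn5 transposase to tag accessible DNA, and it was run on 8 samples of RHKI mouse embryonic stem cells. This line is derived from E14Tg2a and carries an HA-tagged Rnaseh1 knock-in, whose product RNase H1 removes the RNA strand of RNA-DNA hybrids. All 8 samples shared this genotype and grew in 2i/LIF medium with 2% serum, which maintains naive pluripotency. In 4 samples the cells received doxycycline at 500 ng/ml for 48 h, and the 4 control samples received none. The labels do not say whether the line was 1 clone or whether the replicates were separate cultures.

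The peaks came as 1 list for the series, with positions and no height, count or sample. Doxycycline-treated cells could therefore not be compared with controls here, no value has a replicate error, and the depth is unknown. Intervals are exact binomial intervals for shares and exact Poisson intervals for densities. They cover counting error alone and take peaks as independent, although neighbouring peaks gather. No difference below was tested over samples.

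Distal enhancers are stretches of DNA that bind transcription factors and act on promoters far away along the chromosome. Many genes of development stand next to long deserts that hold such elements, while other deserts are known for little activity. Deserts also hold long noncoding RNA (lncRNA) genes, which are transcribed but encode no protein. By their ends, the labelled cells carried open chromatin at most of the naive embryonic stem cell markers. A peak lay within 1 kb of an end of 7 of 8 naive markers (all but Esrrb), 2 of 4 fibroblast markers (Col1a1 and Col1a2, not Col3a1 or Thy1) and 1 of 3 markers of differentiated tissue (Ttr, not Alb or Ins1), where 63.4% of autosomal protein-coding genes had one.

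The sequences below are the promoter windows of 5 lncRNA genes inside deserts, shown because they are the places where a desert peak could be laid over reference sequence. Each window runs from 250 bases before to 50 bases after the annotated start, 5′ to 3′ on the plus strand, from RefSeq on GRCm38, and the capitals mark the bases that a peak covered. Among windows in deserts with a gene on both sides, Gm38791 (chr6:37714405-37714704, between Akr1d1 and Trim24) and Gm41062 (chr13:112100672-112100971, between Map3k1 and Ankrd55) were covered over the most bases. Among those with at least 100 covered bases, 9530059O14Rik (chr9:122572251-122572550, between Abhd5 and Topaz1) had the most CG steps and Celrr (chr1:121087155-121087454, between En1 and Insig2) the fewest. Lncenc1 (chr13:97434720-97435019, between Enc1 and Arhgef28), a lncRNA gene known from embryonic stem cells, is shown because it lies in the densest of the deserts of at least 200 kb with 5 or more peaks.
Gm38791: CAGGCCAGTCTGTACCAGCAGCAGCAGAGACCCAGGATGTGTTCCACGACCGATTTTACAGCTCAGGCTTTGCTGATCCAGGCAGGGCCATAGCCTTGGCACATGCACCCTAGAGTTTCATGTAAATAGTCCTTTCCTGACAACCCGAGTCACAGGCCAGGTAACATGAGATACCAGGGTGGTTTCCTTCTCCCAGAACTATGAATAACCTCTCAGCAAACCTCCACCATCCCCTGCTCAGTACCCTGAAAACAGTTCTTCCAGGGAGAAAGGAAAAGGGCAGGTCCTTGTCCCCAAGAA
Gm41062: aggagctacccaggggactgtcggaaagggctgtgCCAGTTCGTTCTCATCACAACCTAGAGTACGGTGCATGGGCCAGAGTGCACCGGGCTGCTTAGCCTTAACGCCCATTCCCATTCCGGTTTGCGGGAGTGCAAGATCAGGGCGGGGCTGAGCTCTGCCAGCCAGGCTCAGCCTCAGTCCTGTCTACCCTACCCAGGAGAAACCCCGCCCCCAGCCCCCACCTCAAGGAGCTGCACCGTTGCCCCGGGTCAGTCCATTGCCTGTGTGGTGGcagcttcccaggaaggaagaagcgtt
9530059O14Rik: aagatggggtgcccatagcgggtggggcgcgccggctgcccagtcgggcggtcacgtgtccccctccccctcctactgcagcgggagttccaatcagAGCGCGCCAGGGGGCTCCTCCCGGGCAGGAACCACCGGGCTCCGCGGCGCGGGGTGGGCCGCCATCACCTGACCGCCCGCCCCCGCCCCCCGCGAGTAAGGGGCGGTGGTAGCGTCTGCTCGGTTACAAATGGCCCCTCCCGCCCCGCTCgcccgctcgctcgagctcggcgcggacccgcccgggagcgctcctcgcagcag
Celrr: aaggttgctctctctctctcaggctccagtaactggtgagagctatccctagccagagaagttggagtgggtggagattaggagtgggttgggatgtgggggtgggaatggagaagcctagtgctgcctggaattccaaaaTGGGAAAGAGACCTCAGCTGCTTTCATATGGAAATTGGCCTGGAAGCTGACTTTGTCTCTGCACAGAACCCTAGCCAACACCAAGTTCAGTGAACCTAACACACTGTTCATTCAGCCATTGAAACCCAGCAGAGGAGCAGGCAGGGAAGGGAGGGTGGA
Lncenc1: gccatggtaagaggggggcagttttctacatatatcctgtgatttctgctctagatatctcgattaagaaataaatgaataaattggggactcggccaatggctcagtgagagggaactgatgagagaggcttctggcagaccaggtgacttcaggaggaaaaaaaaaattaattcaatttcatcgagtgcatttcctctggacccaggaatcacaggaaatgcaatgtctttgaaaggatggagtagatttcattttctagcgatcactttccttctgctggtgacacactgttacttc
The 5 windows differed widely in base composition. Gm38791 lay wholly within a peak of 448 bp, with 3 CG steps and a GC content of 52%. The Gm41062 window was covered over 239 bases and had 12 CG steps. The 9530059O14Rik window had 38 CG steps, a GC content of 75.7% and a peak of 150 bp in its middle. The Celrr window had 0 CG steps, and its 159 covered bases were the start of a peak of 486 bp that ran on into the gene. The Lncenc1 window itself held no peak, and the next peak began 48 bases past its end, inside the gene.

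Desert sequence was sparsely open. The rule left 1389 unbroken deserts that together spanned 656.6 Mb, or 27.3% of the 2402 Mb of the autosomes, against their 6.28% share of the peaks. Their density was 7.22 peaks per Mb (95% Poisson interval 7.02 to 7.43), where the remaining autosomal sequence had 40.5 per Mb (40.2 to 40.8), 5.61-fold more. Peaks covered 0.105% of desert sequence and 0.610% of the rest. Lengths run between the first and last annotated genes or peaks of a chromosome as listed and include unsequenced stretches, since no genome sequence was used here. Of the 1389 deserts, 1376 had a protein-coding gene on both sides. The 13 at chromosome ends spanned 2.25 Mb and held 33 peaks.

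Density kept falling with distance inside the deserts. It was 41.9 peaks per Mb inside protein-coding genes, 65.4 within 10 kb outside them, 30.7 from 10 to 50 kb and 19.6 from 50 to 100 kb. Past the limit, it was 11.7 per Mb from 100 to 200 kb (2317 peaks) and 6.73 from 200 to 500 kb (1726 peaks). From 500 to 1000 kb it was 3.56 per Mb (484 peaks) and beyond 1000 kb 3.24 (213 peaks). The limit of 100 kb thus crosses a gradual decline and marks no step in it. The median desert peak was 204 kb from its nearest protein-coding gene (quartiles 138 and 351 kb), and the farthest was 2188 kb away. The members nearest to the limit lay between Clec14a and Sec23a on chromosome 12, between Aldh1a3 and Asb7 on 7 and between Zfpm2 and Oxr1 on 15, at 100000.5, 100023.5 and 100071 bp from the nearest gene. The nearest peaks left out, on chromosomes 18, 10 and 15, lay at 99923, 99854.5 and 99853 bp.

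**Figure D1:**
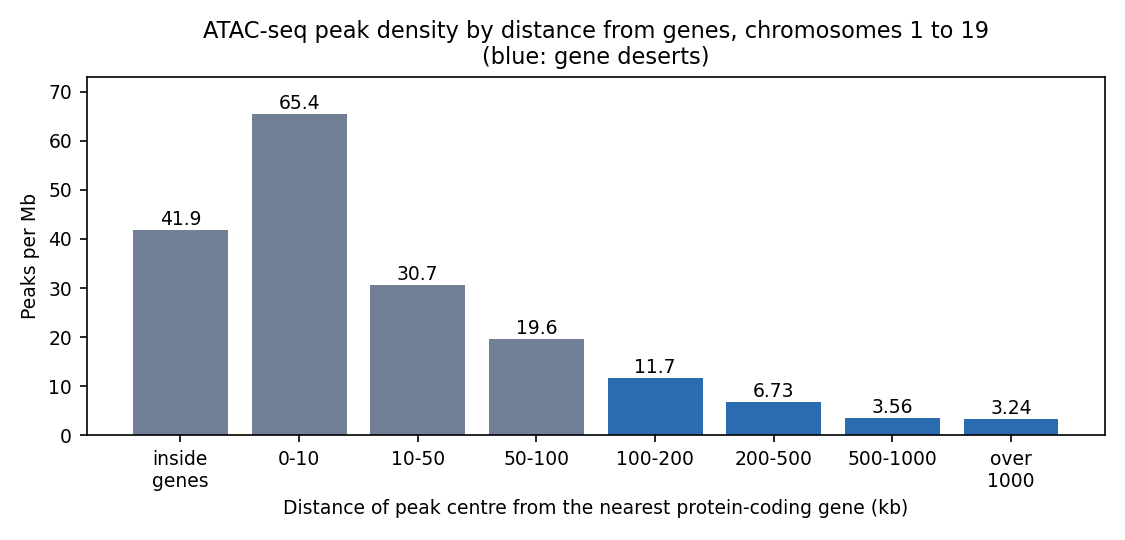
Peaks per Mb of autosomal sequence (vertical axis) by distance to the nearest protein-coding gene (bands on the horizontal axis), with bands over 100 kb marked as desert. The bars fall from 65.4 per Mb within 10 kb of a gene to 3.24 per Mb beyond 1000 kb.

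The low density was found on every autosome. Deserts had fewer peaks per Mb than the rest of the chromosome on 19 of 19 autosomes, with means of 7.38 ± 1.43 and 40.8 ± 6.68 per Mb (SD over 19 chromosomes, which are not replicates). Chromosome 13 had the highest desert density, 10.4 per Mb (353 peaks), followed by 9 with 9.90 and 11 with 9.72. Chromosome 15 had the lowest, 5.29 per Mb (167 peaks), with 14 at 5.68 and 16 at 5.75. The order was not that of the rest of each chromosome. Outside its deserts, chromosome 13 had 34.7 peaks per Mb, below the mean, and chromosome 15 had 44.0, above it. The ratio of the other density to the desert density was accordingly smallest on chromosome 13, 3.34, and largest on chromosome 15, 8.31.

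**Figure D2:**
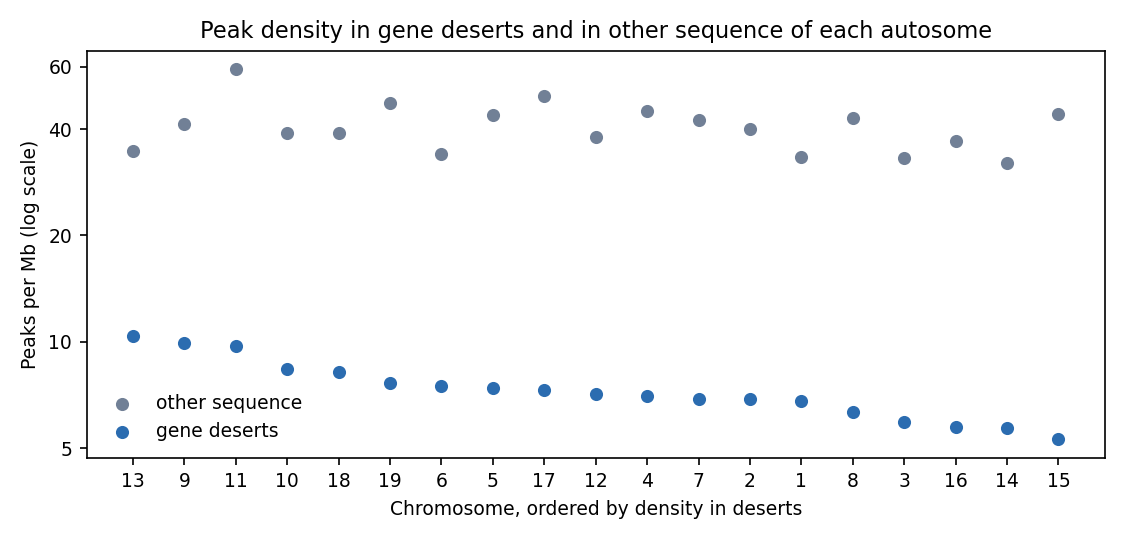
Peaks per Mb (vertical, log scale) in gene deserts and in the other sequence of each autosome, with chromosomes ordered from the highest desert density to the lowest. Desert density runs from 5.29 per Mb on chromosome 15 to 10.4 on chromosome 13 and lies below the density of the other sequence on each of the 19 autosomes.

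Peaks were spread unevenly among the deserts. At least 1 peak lay in 982 deserts (70.7%), and the 407 without any were mostly short, spanning 55.8 Mb or 8.50% of desert length. As few as 181 deserts (13.0%), with 33.6% of the length, held 50% of the peaks. The 133 deserts with 10 or more peaks held 1958 (41.3%), while 246 deserts had 1 peak each. Longer deserts were more often occupied but less dense. Of 253 deserts under 50 kb, 80 (31.6%) had a peak, at 19.7 peaks per Mb. All 61 deserts over 2000 kb had one, at 3.61 per Mb. Short deserts were also denser than the edges of longer ones, though the distances from genes were matched only in part. The 654 deserts under 200 kb with a gene on both sides, whose peaks all lay 100 to 200 kb from the nearest gene, had 16.1 peaks per Mb (15.0 to 17.2). The first 100 kb on either side of the longer deserts, at 100 to 200 kb from the flanking gene, had 9.98 per Mb (9.47 to 10.5). These edges fill the whole range, while no short desert reaches 200 kb from its nearest gene. Density fell with distance, so the comparison does not separate desert length from distance.

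The 10 deserts with the most peaks held 26 to 35 each, at densities from 6.03 to 74.1 per Mb. The desert between Plekhb2 and Hs6st1, a heparan sulfate 6-O-sulfotransferase gene (chromosome 1, 34979586 to 35968399), had the most, 35 peaks, of which 24 lay past the midpoint, on the side of Hs6st1. The desert between Enc1 and Arhgef28 (chromosome 13, 97353041 to 97798593) had 33 and was the densest of the deserts of 200 kb or more with at least 5 peaks, at 74.1 per Mb. Those between Gm4868 and Tmem132c on chromosome 5 and between Bcl11a, a zinc finger transcription factor gene, and Fancl on chromosome 11 had 32 each, the latter with 19 inside lncRNA genes. Between Camk1g and the plexin gene Plxna2 on chromosome 1 there were 29 peaks, of which 24 lay on the Camk1g side of the midpoint. The deserts from Sall3 to Galr1 on chromosome 18, from 1810013L24Rik to the glutamate receptor gene Grin2a on 16 and from Celf4 to Pik3c3 on 18 held 28, 27 and 26 peaks. In 6 of the 10, those of Plekhb2, Enc1, Bcl11a, Gm36448, Camk1g and Sox2, the counts on either side of the midpoint differed by 10 or more, and in the other 4 by at most 2.

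Next in density after that of Enc1 and Arhgef28 came the deserts from Opa1 to Hes1, which encodes a Notch-responsive repressor, with 13 peaks at 64.3 per Mb, from LOC108167368 to Asap2 with 15 at 62.3, from Cyria to Mycn with 21 at 59.1 and from 1810013L24Rik to Grin2a with 27 at 53.0. Each of the 5 held at least 1 cluster as defined below. The longest deserts looked different. The desert between the protocadherin genes Pcdh20 and Pcdh9 (chromosome 14, 4342 kb) held 18 peaks, or 4.15 per Mb. From Celf4 to Pik3c3 (4311 kb) the density was 6.03 per Mb, from Olfm4 to Pcdh17 2.61, from Cntnap5b to Cdh20 5.40 and from Tenm3 to Aga 1.85. The longest deserts with no listed peak spanned 1300 kb between Stpg2 and Pdha2 on chromosome 3, 1278 kb between Tafa2 and Slc16a7 on 10, 1171 kb between Grin3a and Cylc2 on 4, 1167 kb between Bod1l and Gm46911 on 5 and 1128 kb between Kctd16 and Prelid2 on 18. These stretches may still hold open sites below the unknown threshold of the list.

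**Figure D3:**
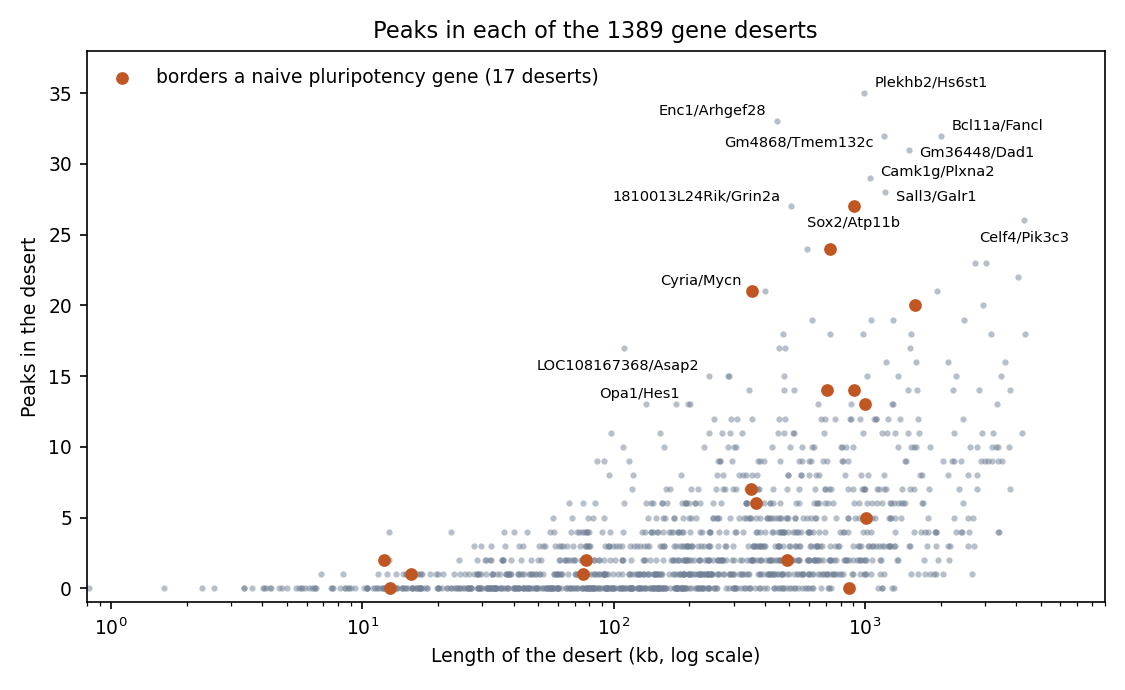
Each point is 1 of the 1389 deserts, with its length in kb on a log axis (horizontal) and its number of peaks (vertical), and deserts that border a naive pluripotency gene are larger and orange. The most, 35 peaks, lie between Plekhb2 and Hs6st1, and deserts of about the same length range down to 0 peaks.

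Among the deserts rich in peaks, 1 stood apart in what it holds. The desert between Gm36448 and Dad1 (chromosome 14, 52641357 to 54135484) had 31 peaks among 132 segments of the T cell receptor alpha and delta loci, which RefSeq does not class as protein-coding genes. Its peaks were narrow, with a median width of 111 bp. In all, 7 deserts held immune receptor segments, with 70 peaks in 7.11 Mb, or 9.84 per Mb. The immunoglobulin heavy chain locus between Adam6a and Zfp386 had 15. Without these 7 deserts the overall density was 7.19 per Mb.

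Desert peaks lay far apart by comparison and were unevenly spaced. Of them 1838 (38.8%, interval 37.4 to 40.2%) had another peak centre within 10 kb, against 74.6% of the other autosomal peaks and 72.3% of all autosomal peaks. The median distance to the nearest peak was 18.2 kb, against 4.11 kb elsewhere. Such shares and distances depend on density, and the mean length of sequence per peak was 139 kb in deserts and 24.7 kb elsewhere. A total of 744 (15.7%) had no peak within 100 kb, against 1.04% elsewhere. The median gap between neighbours in the same desert was 31.2 kb (quartiles 7.95 and 97.0 kb, 3758 gaps). In tiles of 100 kb laid along the deserts, 64.4% of 5896 tiles had 0 peaks and the highest had 16. The variance of the tile counts, 1.54, was 2.36 times their mean of 0.650, where counts placed evenly at random have a ratio near 1. The differences in density by distance and desert length given above raise this ratio too, so it does not measure local gathering alone. The 109 tiles (1.85%) with 5 or more peaks held 18.9% of the peaks that fell in tiles. Deserts under 100 kb and remainders shorter than a tile are left out of these counts.

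**Figure D4:**
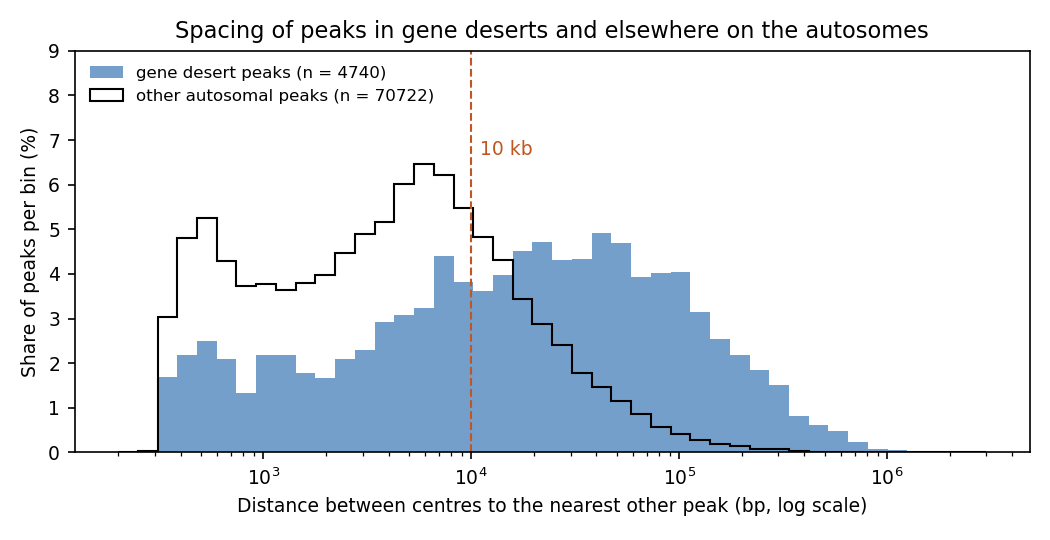
Distance from each peak centre to the nearest other peak centre (horizontal, log scale, in bp), as a percent of peaks per bin (vertical), for 4740 desert peaks (filled) and 70722 other autosomal peaks (line). Desert peaks extend to longer distances, with a median of 18.2 kb against 4.11 kb, and 38.8% of them lie to the left of the dashed line at 10 kb.

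Clusters, taken as runs of 5 or more desert peaks with neighbouring centres at most 10 kb apart, were few. There were 31, with 183 peaks (3.86% of the desert peaks) in 27 deserts, and their median span was 17.3 kb. Of the 3670 runs in all, counting peaks on their own, 2931 were single peaks and 525 were pairs. The largest clusters had 8 peaks. The first (chromosome 12, 12802394 to 12827618) lay 108 kb below Mycn, a proto-oncogene of the Myc family. Another (chromosome 17, 88304131 to 88334034) lay 107 kb below the forkhead gene Foxn2 and overlapped the lncRNA genes Gm31615 and 1700116H05Rik. The third (chromosome 19, 6645028 to 6675819) lay 102 kb above the urate transporter gene Slc22a12. The 5 clusters of 7 lay between Sp4 and Sp8, between Gm4832 and Foxn2 (the same desert as the cluster of 8), between Spring1 and Med13l, between 1810013L24Rik and Grin2a and between Enc1 and Arhgef28. The desert between Gm4832 and Foxn2, at 110 kb too short for the ranking by density above, had 17 peaks, 15 of them in these clusters, and a density of 155 per Mb. A lncRNA gene overlapped 20 of the 31 clusters (64.5%), where 15.4% of the 37242 desert tiles of the clusters' median span overlapped one. A cluster of 5 lay in the imprinted domain between Rtl1 and Dio3.

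The Enc1 to Arhgef28 desert had 18 of its 33 peaks in 3 clusters. Of these clusters, 2 overlapped Lncenc1 and 1 overlapped Gm5086. The 62.7 kb of Lncenc1 (chromosome 13, 97434970 to 97497664, plus strand) held 12 peaks, or 191 per Mb, from 97435068 to 97435196 near its start to 97494950 to 97495128 near its end. The widest peak of the desert, 458 bp (97580232 to 97580689), lay in Gm5086. Above 97617204 the desert held 2 peaks, both in its last 100 kb before Arhgef28.

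Genes of the naive pluripotency network bordered some of the most populated deserts. Of a list of 30 such genes, 12 flanked a desert, and their 17 deserts held 159 peaks in 9.46 Mb, or 16.8 per Mb, with a median per desert of 16.3. Among all 20558 autosomal protein-coding genes 2354 flanked a desert. Over all deserts the density was 7.22 per Mb and the median 4.97. Restricted to deserts of 200 kb or more, the values were 16.5 per Mb for the list (12 deserts) and 6.41 for all 722. The list had been chosen with results on these peaks known, so it is described here and supports nothing.

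The transcription factor Sox2, central to self-renewal, had the most. Its upper desert, to Atp11b (chromosome 3, 34752462 to 35654043), held 27 peaks, of which 19 lay nearer Sox2 and 10 within 200 kb of it. The widest 3 of these 27 lay at 34756660 to 34757004 (345 bp), 34761231 to 34761597 (367 bp) and 34787148 to 34787506 (359 bp), within 135 kb of the gene. A distal control region downstream of Sox2 is known in mouse embryonic stem cells. The desert on its other side, to Dnajc19, held 6 peaks in 369 kb, so the downstream side was the denser one, at 29.9 against 16.3 per Mb.

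Mycn and Myc, 2 related transcription factor genes that promote growth, differed between their sides. Below Mycn, whose annotated ends had no peak within 1 kb (the nearest lay 1486 bp away), the desert to Cyria held 21 peaks, 17 of them nearer Mycn. Its other desert, to Ddx1, was 77.5 kb long and held 2, or 25.8 per Mb against 59.1 below the gene. Above Myc the desert to Gsdmc (chromosome 15, 62090362 to 63675970) held 20 peaks, 8 of them inside the lncRNA gene Pvt1 and none between 62163509 and 62431291. Below Myc the desert to A1bg, 864 kb long, held 0 peaks.

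Jarid2, which encodes a polycomb cofactor, had 24 peaks in the desert to Cd83 (33.0 per Mb), of which 14 lay nearer Jarid2 and 14 lay in lncRNA genes. The nuclear receptor gene Nr5a2 had 14 in the 902 kb above (15.5 per Mb) and 2 in the 12.2 kb below (164 per Mb). The zinc finger gene Sall1 had 13 in the 1003 kb above and 1 in the 75.3 kb below, at 13.0 and 13.3 per Mb. The T-box gene Tbx3 had 14 in its lower desert. Klf5 and Klf4, Krüppel-like factor genes of the same network, had 7 and 5. The DNA demethylase gene Tet2 had 2, the LIF receptor gene Lifr 1 and Zfp42, the marker gene also called Rex1, 0. The 2 last have deserts of 15.6 and 12.9 kb, where few peaks could fall.

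The edges of these deserts differed widely from gene to gene. In the first 100 kb of each desert of 200 kb or more, counted from 100 to 200 kb from the flanking gene, there were 9.98 peaks per Mb over all 1444 edges, where these deserts as a whole had 6.41. On the 12 edges of naive pluripotency genes, a list chosen with results known, there were 42.5 per Mb (51 peaks). Of these 12 edges 10 were occupied, where 691 of all 1444 edges (47.9%) were. The 12 whole deserts had 16.5 per Mb. Sox2 and Mycn contributed most, and without them the value was 30.0 per Mb (27 peaks on 9 edges). At the other end of the range, Tbx3 had 2 peaks, Klf4 and Nr5a2 1 each, and Tet2 and the lower side of Myc 0. Over all 1444 edges 17 (1.18%) had 8 or more peaks. These included Mycn with 11, the upper side of Sox2 with 10, Jarid2 with 9 and the upper side of Myc with 8. Other edges of this size belonged to genes outside the list, with 11 each at Camk1g, Rpl38 and Ttc29 and 10 each at Enc1 and at the matrilin gene Matn1.

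**Figure D5:**
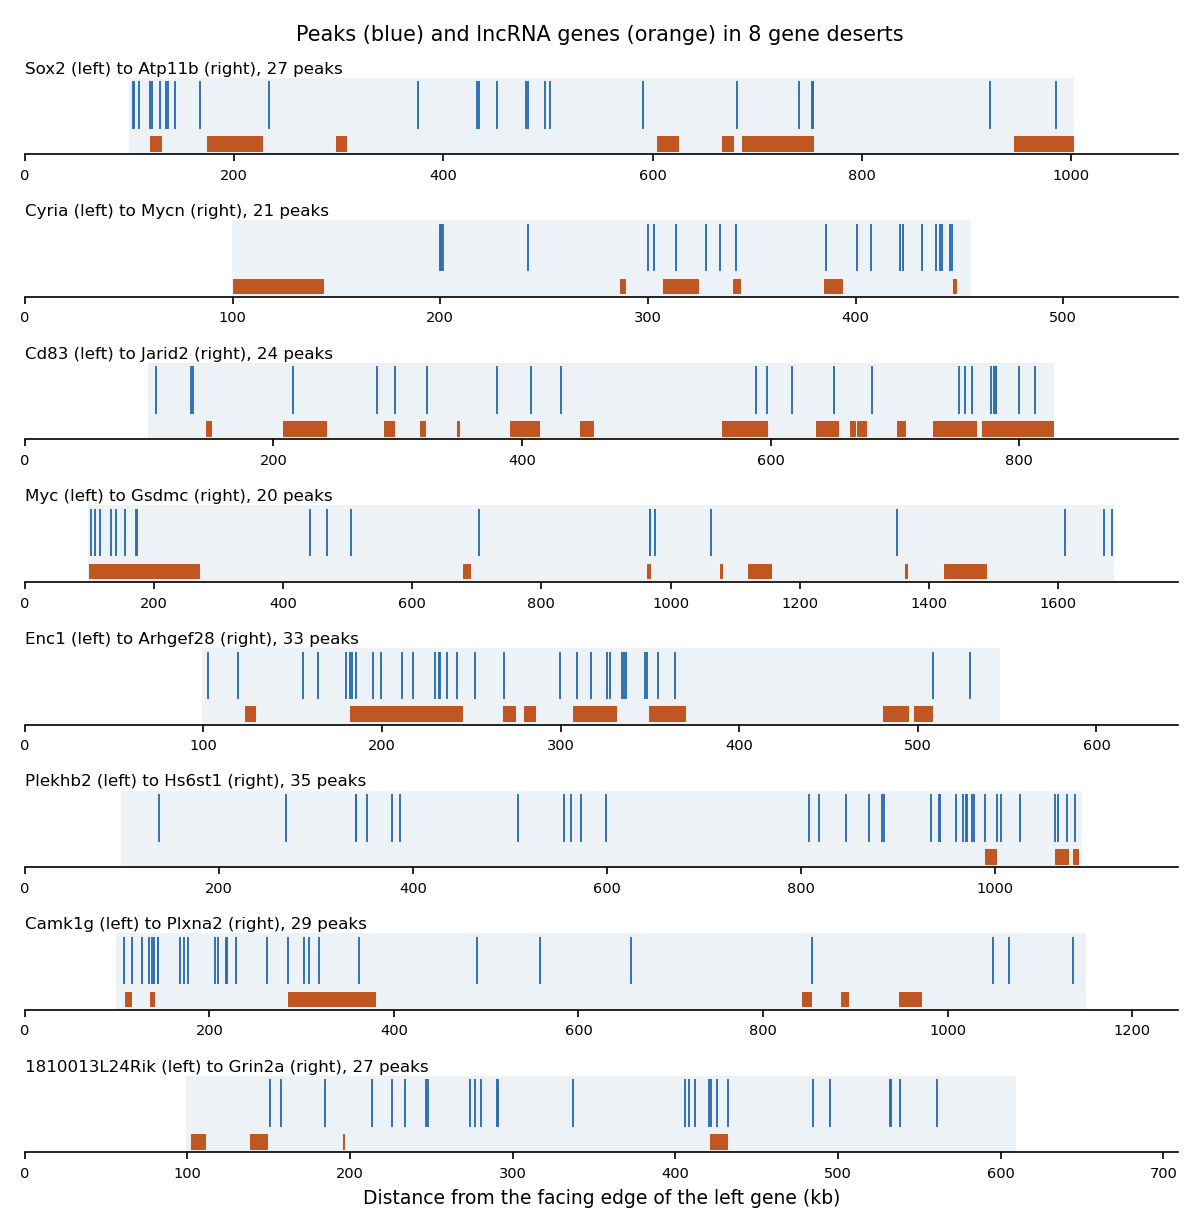
Peaks (blue ticks) and lncRNA genes (orange bars) along 8 deserts, drawn from the facing edge of the left gene in kb, with the shaded part over 100 kb from both flanking genes. In the desert above Sox2, 10 of 27 peaks lie within 200 kb of the gene, and in the desert below Mycn 17 of 21 lie nearer Mycn.

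The other 3 lists of flanking genes, also chosen with results known, gave other pictures. Their counts stand beside 2354 flanking genes among all 20558 autosomal protein-coding genes. Of 261 developmental transcription factor genes 97 flanked a desert, and their 117 deserts held 554 peaks at 9.19 per Mb (median 7.65). Sox2, Sall1 and Tbx3 are in both this list and the naive one. After Sox2 with 33 peaks on its 2 sides, the most were at Bcl11a with 32, Sall3 with 28 and the orphan nuclear receptor gene Nr2f1 with 19. In the first 100 kb the value was 12.0 per Mb (97 peaks on 81 edges), against 9.98 over all edges. Of these 97 peaks, 10 and 3 lay on the edges of Sox2, 3 on that of Sall1 and 2 on that of Tbx3. These genes are shared with the naive list, and a value without them was not computed. Of 199 genes of neural adhesion and axon guidance 82 flanked a desert, and their 121 deserts were long, with a median of 757 kb against 219 kb over all, and sparse, with 583 peaks at 3.87 per Mb (median 2.91). The N-cadherin gene Cdh2 had 30 peaks in 3580 kb, the protocadherin gene Pcdh7 25 in 6871 kb, and Cntnap5a, Cntnap5b and Pcdh9 had 23 each. At the edges of these genes the first 100 kb had 5.50 per Mb (111 edges), against 9.98 over all edges at the same distance. Desert length was not matched here. Among deserts of 200 kb or more the median was 1138 kb for this list and 551 kb over all. Of 1505 sensory receptor genes 28 flanked a desert, and 0 of the 28 had a peak at an end. Among flanking genes of the other lists a peak at an end was found for 9 of 12 naive pluripotency genes, 69 of 97 developmental transcription factor genes and 51 of 82 neural genes, and for 65.2% of all flanking genes. The 23 deserts of the sensory receptor genes held 24 peaks in 2.72 Mb (8.84 per Mb, median 0). Of these peaks 10 bordered the bitter taste receptor gene Tas2r134, 4 the vomeronasal receptor gene Vmn1r238, 3 Tas2r119 and 2 the olfactory receptor gene Olfr267. These deserts were short, with a median of 67.3 kb. All deserts under 50 kb had 19.7 per Mb and those of 50 to 200 kb 15.6. The 5 sensory deserts of 200 kb or more had 7.81 per Mb (11 peaks), against 6.41 over all of that length.

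Genes that flank deserts had a peak at an end about as often as all genes. Of the 2354 flanking genes, 1534 (65.2%, 63.2 to 67.1%) had a peak within 1 kb of an end, where 63.4% of all autosomal protein-coding genes had one. Within 500 bp the shares were 58.8% and 58%, and within 5 kb 76.2% and 75.9%. In the first 100 kb there were 11.4 peaks per Mb (10.5 to 12.4) where the facing end of the gene had a peak (501 edges) and 9.22 (8.61 to 9.85) where it had none (943 edges). Where the strand was known, edges facing a gene start had 10.6 per Mb (9.74 to 11.5, 562 edges). Edges facing a gene end had 9.29 (8.49 to 10.1, 536 edges). The intervals overlap, which is not a test, and the difference was not tested. Of the 17 edges with 8 or more peaks, the facing gene end had no peak in 11, among them Mycn, Camk1g and the upper side of Sox2. Over all 1444 edges it had none in 943, a similar share.

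Desert peaks were over-represented in lncRNA genes relative to length. Of them 887 (18.7%, 17.6 to 19.9%) had their centre inside a RefSeq lncRNA gene, while such genes took up 10.8% of desert length. The density was 12.5 peaks per Mb inside them and 6.58 outside, a ratio of 1.91. Among all autosomal peaks 10.8% had their centre in a lncRNA gene, and among those outside deserts 10.2%. The excess was found nearer to protein-coding genes. From 100 to 200 kb from the nearest one there were 18.4 peaks per Mb in lncRNA genes against 10.6 outside, and from 200 to 500 kb 11.0 against 6.17. Beyond 500 kb the densities were 3.83 and 3.43 per Mb (52 and 645 peaks), a ratio of 1.12. Outside every annotated gene of any class lay 3719 desert peaks (78.5%). A further 73 lay in loci of the class other and 52 in pseudogenes.

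The 10 lncRNA genes with the most desert peaks held 7 to 17 each. Gm31615 by Foxn2 and 5730522E02Rik between Bcl11a and Fancl each had 17, in 152 kb and 594 kb. Lncenc1 followed with 12 and had the highest density of the 10. Gm31813 near Tbl1xr1, Gm31432 near 4931429L15Rik and A930011G23Rik near Rasgef1b had 10 each, Gm31816 near Cadm1 and Pvt1 near Myc 8 each, and Gm32543 near Cited2 7. Morrbid, known for regulating its neighbour Bcl2l11 in myeloid cells, had 7 in 131 kb. The 10 were picked by the number of peaks inside them, so their insides and ends cannot be compared fairly. At the ends of the 10, Gm31615, Gm31813, Gm31432 and Gm32543 had no peak within 1 kb, and A930011G23Rik had 2.

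Most lncRNA genes in deserts had no listed peak at their ends. Of the 2031 that lay wholly inside deserts, 243 (12.0%, 10.6 to 13.5%) had a peak within 1 kb of an end, against 36.6% of the 10291 other autosomal lncRNA genes and 32.5% of all. In 918 desert lncRNA genes of at least 10 kb with a known strand, 100 (10.9%) had a peak at the start, 30 (3.27%) at the far end and 9 at both. Within the promoter window itself, 93 of 2016 desert windows (4.61%) overlapped a peak, against 17.5% of windows of other lncRNA genes, 51.4% of those of protein-coding genes and 38.3% of all autosomal windows.

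By their medians, desert promoters with a peak were lower in CG than open promoters elsewhere. Their median GC content was 52.7% with 6 CG steps (93 windows), against 44.3% and 3 in desert windows without a peak (1923 windows). Windows with a peak had 60.7% and 18 at other lncRNA genes and 62.3% and 22 at protein-coding genes. At least 10 CG steps were present in 32.3% of desert windows with a peak, 4.42% of those without, 69.2% of other open lncRNA windows and 89.6% of open protein-coding windows. Of the windows printed above, 9530059O14Rik, with 38 CG steps, was above all of these medians. Gm41062, with 12, lay between those of open desert and other open lncRNA windows, and Gm38791 and Celrr, with 3 and 0, were below that of open desert windows.

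Short motifs were searched as exact letters on both strands of each window, and GGGCGG and the CG count overlap in part. The GC box GGGCGG was in 26.9% of desert windows with a peak and 4.58% of those without, against 36.0% of all 31396 windows. TATAAA was in 10.8% and 20.5%, against 13.6% of all. CCAAT was in 37.6% and 39.7%, against 37.3% of all. The octamer ATGCAAAT, the letters read by POU factors such as Pou5f1, was in 4 of 93 (4.30%) and 2.29%, against 1.75% of all. Of the windows printed above, Gm41062 held the GC box, 9530059O14Rik the GC box and CCAAT, Celrr and Lncenc1 CCAAT, and Gm38791 none of the 4. A match is a description of letters and not of binding.

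Desert peaks were about as wide as others. Their median width was 132 bp (quartiles 115 and 158) against 130 bp (115 and 156) for the other autosomal peaks. A width over 200 bp was found in 377 (7.95%, 7.20 to 8.76%), against 9.29% of the others and 9.21% of all autosomal peaks. The widest desert peak, 796 bp (chromosome 17, 15247917 to 15248712), lay 119 kb from the Notch ligand gene Dll1, in the desert to Ermard. The next were 566 bp on chromosome 8 between 9530057J20Rik and Gm15319, 562 bp on 6 between Sdhaf3 and the tachykinin gene Tac1, and 556 bp on 14 between Serp2 and Lacc1. None of these 4 lay in a lncRNA gene, and the peak by Gm15319 had no other peak within 109 kb.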

How the data were processed

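ATAC-seq was made from 4 control and 4 Dox samples, grouped by the sample titles. The deposited peak list holds positions in base pairs and no other unit: 76996 lines of 3 columns with chromosome, start and end. The build was GRCm38, and the tools were deepTools 3.5.1, HOMER 4.11, SAMtools 1.16.1, Picard 2.10.9, Bowtie2 2.5.0 and Trimmomatic 0.39, per the submitters' processing notes. Not given in the sources used here are each tool's role, the peak caller and threshold, the treatment of multiply mapping reads, any pooling of samples and the depth. Starts were counted from 0 and are printed counted from 1.

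Gene bounds are those of RefSeq for GRCm38.p6, where 126 protein-coding genes with positions on patches or scaffolds were left out, leaving 21774 (20558 on autosomes). Strand came from the RefSeq promoter table and was missing for some genes. A desert is an unbroken stretch over 100 kb from every protein-coding gene, named by the genes on both sides. Peaks were assigned by their centre. A peak at a gene end overlaps 1 kb on either side of it.

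The peaks and gene lists were chosen with earlier results of these data known. The text names the 10 deserts with the most peaks, the 5 densest of at least 200 kb with at least 5 peaks, the 5 longest, the 5 longest without a peak, the 5 largest clusters (ties at 7 peaks are all named), the 5 widest peaks, the 10 lncRNA genes with the most desert peaks, 3 peaks on either side of the limit and the 4 leading members of each gene list (ties included). Of the widest peaks, 1 is not reported here. Other deserts, clusters, edges and lncRNA genes, including all flanking naive pluripotency genes, and the 5 sequences were picked after their values were seen. The counting was tested on simulated data and equalled a direct count in 5 of 5 sets. Calculations used Python 3.11.15, NumPy 2.4.6, pandas 2.3.3 and SciPy 1.17.1, with matplotlib 3.10.9 for figures. Other desert limits, distances, windows, peak widths and gene classes were tried as alternatives.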

Additional observations from a re-analysis of the deposited data

Results flagged for a closer look

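Chromosome X was outside the rule, and its peaks were looked at separately. The list held 161 peaks on X over 100 kb from every protein-coding gene, more than the 3 counts used as a floor, which is not a test. They lay in 55.5 Mb, at 2.90 per Mb, against 11.8 per Mb in the rest of X. Both densities were below those of every autosome, where deserts had at least 5.29 per Mb. The sex of the cells and the number of X copies were not analysed here.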

How the results depend on the processing

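The density of 7.22 desert peaks per Mb was 9.90 with a limit of 50 kb, 5.29 with 200 kb, 3.77 with peaks wider than the median alone and 4.52 with lncRNA genes also bounding the deserts. The share of autosomal peaks in deserts was 11.0%, 3.21%, 6.61% and 2.19% under the same 4 settings. The share with a neighbour within 10 kb was 47.0%, 31.9% and 25.2% under the first 3 settings, and 26.9% and 56.8% for neighbours within 5 and 25 kb. Clusters of 5 numbered 9 with gaps of at most 5 kb and 101 with 25 kb, so their number follows the gap allowed. The share in lncRNA genes was 20.6% with a limit of 50 kb and 15.6% with 200 kb. Flanking genes with an end peak were 58.8% within 500 bp and 76.2% within 5 kb, where all autosomal protein-coding genes had 58% and 75.9%. Occupied deserts were 67.9% with a limit of 50 kb and 56.0% with wider peaks. The other 9 values stayed within their counting interval, among them those without the immune receptor deserts, an alternative chosen after seeing the data. No paired analysis was possible because the peak list carries no values per sample, and for the same reason no replicate could be left out. Depth limits every count of absent peaks by an unknown amount.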
